A study of Mus musculus with 10 samples.

Results

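Ndel1 encodes Nde-like 1, a coiled-coil protein that hands the regulator Lis1 to cytoplasmic dynein, and 7 genes of the same machinery were followed beside it in mouse lung. The 8 genes are Ndel1, its paralog Nde1, Pafah1b1 (the gene of Lis1), the dynein 1 subunits Dync1h1, Dync1i2 and Dync1li1, the dynactin subunit Dctn1 and the cargo adaptor Bicd2. They were taken by gene symbol from a table of 24394 symbols and hold 23 RefSeq transcript rows. Ndel1 was selected on its FPKM values in these same data, which nearly vanished in the OVA libraries, so its levels are given as a description with no test. The other 7 were chosen as its partners, and the question was whether they followed it.

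The table holds 10 lung libraries from young adult female BALB/c mice. Saline mice were the controls (n = 3). OVA mice were sensitized to ovalbumin with alum and then challenged with ovalbumin through the nose, a model of allergic asthma (n = 3). Herb mice went through the same ovalbumin protocol and also received by mouth an ethanol extract of Descurainia sophia seeds (n = 4). Each library is of whole lung tissue, so fewer cells of a type and less RNA per cell cannot be told apart.

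Cytoplasmic dynein 1 is the motor that walks toward the minus end of microtubules. Its heavy chain, encoded by Dync1h1, carries the motor domain, and the intermediate chain (Dync1i2) and light intermediate chain (Dync1li1) connect the motor to its partners. Dynactin, with Dctn1 as its microtubule-binding p150 subunit, and an adaptor such as Bicd2 join dynein to a cargo and make it processive. Lis1 binds the motor domain and favours its active state, and Ndel1 and Nde1 tether Lis1 to the intermediate chain. Loss of Lis1 causes lissencephaly, and the same proteins serve nuclear movement, mitosis and, in the airway, the traffic of vesicles and centrosomes in epithelial and immune cells.

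The promoter sequences of the genes come from RefSeq (GRCm38.p6, the mm10 build that the deposited table uses), which had a window of 300 bases around the start site for all 8 genes, 10 windows in all. The windows of Ndel1, of its partner Pafah1b1 and of the motor gene Dync1h1 are shown because the study measured CpG methylation beside RNA. The letters CG, which read the same on both strands, are in capitals, and each window is printed 5′ to 3′ on the strand of its gene.
Ndel1, chr11:68853086-68853385, minus strand: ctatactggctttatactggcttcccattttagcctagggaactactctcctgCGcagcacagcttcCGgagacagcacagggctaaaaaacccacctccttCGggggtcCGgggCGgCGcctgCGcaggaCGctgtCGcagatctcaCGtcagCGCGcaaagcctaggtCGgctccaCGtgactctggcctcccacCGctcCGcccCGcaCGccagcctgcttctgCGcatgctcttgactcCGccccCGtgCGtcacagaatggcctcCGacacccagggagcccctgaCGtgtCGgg
Pafah1b1, chr11:74723809-74724108, minus strand: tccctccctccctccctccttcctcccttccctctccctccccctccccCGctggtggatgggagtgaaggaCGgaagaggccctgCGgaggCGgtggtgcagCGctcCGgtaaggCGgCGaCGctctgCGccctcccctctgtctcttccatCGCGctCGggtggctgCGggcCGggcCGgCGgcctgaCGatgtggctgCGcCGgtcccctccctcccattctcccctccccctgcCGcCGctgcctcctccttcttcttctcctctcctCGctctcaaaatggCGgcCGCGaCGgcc
Dync1h1, chr12:110601145-110601444, plus strand: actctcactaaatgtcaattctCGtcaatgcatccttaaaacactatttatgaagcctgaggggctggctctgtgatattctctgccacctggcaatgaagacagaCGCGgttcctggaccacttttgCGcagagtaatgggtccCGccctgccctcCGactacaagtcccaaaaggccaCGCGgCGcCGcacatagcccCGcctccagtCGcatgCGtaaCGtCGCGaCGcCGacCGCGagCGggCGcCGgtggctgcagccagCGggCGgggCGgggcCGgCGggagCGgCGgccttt
The Ndel1 window held 25 CG, the Pafah1b1 window 27 and the Dync1h1 window 30. The median of all 32851 windows was 7, and 94.6% held at least 1. The Nde1 window also held 30 and those of Dync1li1 and Bicd2 held 31 and 27. Dync1i2 had a CG-rich window with 25 and a second with 6, and the Dctn1 windows, at 2 start sites inside the gene, held 3 and 7. Apart from the Dctn1 windows and the second Dync1i2 window, each window thus held 25 or more, and methylation was not analysed here. The differentially methylated region that the study lists for Ndel1 lies inside the gene and outside the window printed above.

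The values are FPKM, fragment counts divided by the length of the transcript and the depth of the library. Tests were made with limma on log2(FPKM + 1) over all genes with a mean of at least 1 FPKM, with all 10 libraries in the fit and Benjamini-Hochberg adjustment. A value after ± beside a log2 difference is its SE. A RefSeq sum is the sum of a gene's RefSeq rows. The table also lists transcript models that the authors' assembler built from the reads and that carry no gene symbol. A locus sum adds to the RefSeq rows those models whose number and place in the file put them at the same gene. This second quantity was chosen after the values were seen, and the table gives no coordinates for the models. All 8 genes passed the filter.

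The whole scale of the table moved between the groups. RefSeq mRNA rows (NM identifiers) made up between 18.5% and 21.3% of the summed FPKM in Saline, between 3.36% and 4.68% in OVA and between 8.44% and 13.6% in Herb. The median gene differed by -0.75 on the log2 scale in OVA vs. Saline and by 0.48 in Herb vs. OVA. With the libraries rescaled so that the 75th percentiles of their gene sums were equal, these medians were 0.00 and 0.03. The summed FPKM of alveolar type 2 markers lay between 3050 and 4017 in Saline, between 355 and 665 in OVA and between 869 and 1722 in Herb, and that of endothelial markers between 247 and 299.6, between 36.2 and 67.9 and between 85.1 and 186. No marker of these 2 lists was listed at 0 throughout a group. Most of the genes below moved in OVA in the same direction as these shifts, and the part of the shifts in each result was not tested. The marker lists of proliferating and ciliated cells, given below, did not fall in this way. The summed markers of alveolar type 1 cells lay between 531 and 643 FPKM in Saline and between 42.0 and 139 in OVA. Those of T cells (3 of 4 listed) fell from between 5.71 and 8.70 to between 0.857 and 2.08. Those of B cells fell from between 13.4 and 23.3 to between 3.15 and 5.84. Eosinophil markers (3.19 to 4.64, then 1.77 to 3.38) and macrophage markers (26.6 to 43.8, then 13.6 to 26.8) overlapped between Saline and OVA.

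The Ndel1 gene lies at chr11:68821434-68853146. Its RefSeq row, NM_023668, a transcript of 2382 bases, was at 14.9, 9.50 and 8.98 FPKM in the 3 Saline libraries. It was listed at 0 in OVA 1 and OVA 2 and was at 0.607 FPKM in OVA 3. In the Herb libraries it was at 7.89, 6.90, 5.04 and 5.69 FPKM. The 3 groups did not overlap: OVA lay lowest, Herb between, and Saline highest. On the log2(FPKM + 1) scale the difference was -3.34 in OVA vs. Saline, 2.64 in Herb vs. OVA and -0.70 in Herb vs. Saline. With a pseudocount of 0.1 the first of these was -5.83, so its size depended on the pseudocount.

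The locus as a whole kept signal in OVA. The assembled model MSTRG.4494.1, placed at Ndel1, was listed at 0 in Saline 1 and Saline 2 and was at 0.101 FPKM in Saline 3. It was at 8.53 FPKM in OVA 1 and at 7.17 FPKM in OVA 3, but at 0.194 FPKM in OVA 2. In Herb it stayed between 0.128 and 0.190 FPKM. This model was therefore high in the libraries OVA 1 and OVA 3 alone among the 10, where the RefSeq row was at or near 0. In OVA 2 neither row carried the signal. MSTRG.4494.2 was at 0.998, 2.27 and 2.93 FPKM in Saline, at 0.719, 2.92 and 0.643 in OVA and at 1.52, 2.48, 2.06 and 1.78 in Herb. Its lowest values were thus in OVA 1 and OVA 3, where MSTRG.4494.1 was high, and in OVA 2 it made up 57.5% of the locus. MSTRG.4494.4 was at 4.10, 4.75 and 3.68 FPKM in Saline, at 2.36, 1.96 and 2.60 in OVA and at 3.62, 5.23, 3.51 and 3.55 in Herb.

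**Figure D1:**
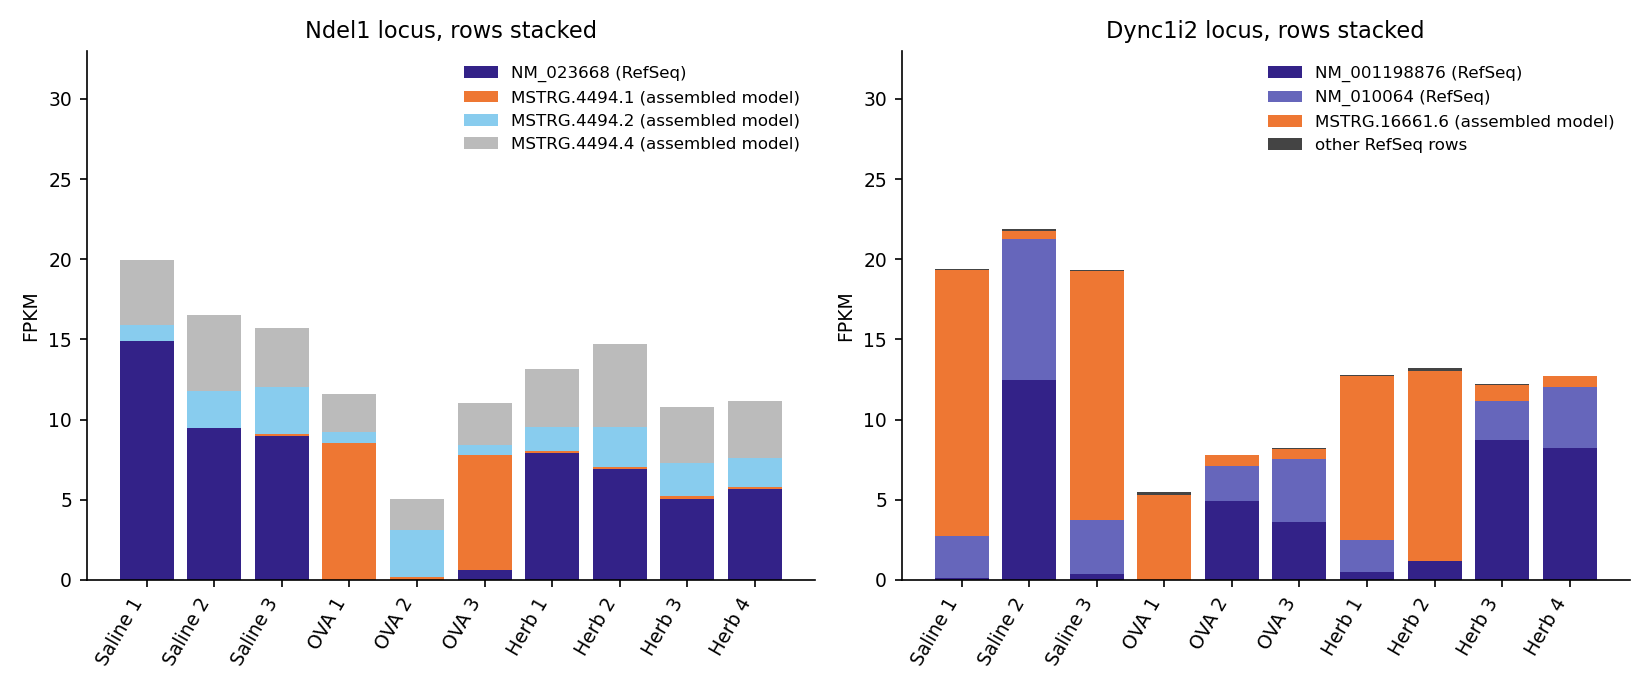
Stacked bars give the FPKM (y axis) of each row at the Ndel1 locus (left) and the Dync1i2 locus (right) in each of the 10 libraries (x axis), with RefSeq rows in blue tones and assembled models in orange, light blue and grey. At Ndel1 the orange model is high in OVA 1 and OVA 3 alone, and at Dync1i2 the orange model is high in Saline 1, Saline 3, OVA 1, Herb 1 and Herb 2.

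Summed over the locus, Ndel1 was at 19.97, 16.5 and 15.7 FPKM in Saline, at 11.6, 5.08 and 11.02 in OVA and at 13.2, 14.7, 10.8 and 11.2 in Herb. OVA was still below Saline in every library, with a mean of 9.24 ± 3.61 FPKM against 17.4 ± 2.27 (SD, n = 3 each), which is 53.1% of the Saline mean. OVA and Herb now overlapped, with a Herb mean of 12.5 ± 1.84 FPKM (SD, n = 4). The RefSeq row held 74.5%, 57.5% and 57.2% of the locus in Saline, 0%, 0% and 5.51% in OVA and 59.96%, 46.8%, 46.7% and 51.0% in Herb. The log2 difference of the locus sum was -0.91 in OVA vs. Saline, 0.46 in Herb vs. OVA and -0.45 in Herb vs. Saline.

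The RefSeq difference is the value that Ndel1 was selected on, so its place among the lowest 0.723% of 11205 genes in OVA vs. Saline was fixed by that choice. Of 11560 locus sums, 40.6% had a difference as low as that of Ndel1. After the 75th percentile rescaling the locus sum of Ndel1 differed by 0.01 in OVA vs. Saline and by -0.12 in Herb vs. OVA. In the same setting its RefSeq sum still differed by -2.89 and 2.54. Another 80 genes had RefSeq sums that fell at least as far, and 11 of these had placed models. The RefSeq sums of those 11, which were chosen on this fall, differed by a median of -4.19, and their locus sums by a median of -2.34, between -3.48 and -1.54. For Ndel1 the same values were -3.34 and -0.91.

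Other transcripts of Ndel1 exist in the annotation. RefSeq lists 3 for GRCm38.p6, of which the table holds 1. The GENCODE vM21 transcript of the same length as NM_023668 shares 38.3% of its 76-base words (the read length) with one other Ndel1 transcript and 42.6% with another. The models could not be matched to these transcripts, as the table names no exons. The longest exact run that it shared with any Nde1 transcript was 18 bases, so no 76-base word of this transcript occurs in them.

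Nde1, the paralog of Ndel1, is known for its work in dividing cells. It lies at chr16:14163275-14192928, and reads from neighbouring genes were not examined. Its 4 rows summed to 6.55, 4.27 and 5.76 FPKM in Saline, to 3.45, 1.80 and 1.999 in OVA and to 6.05, 4.26, 3.42 and 4.16 in Herb. OVA lay below Saline in every library, and Herb 3 lay just below OVA 1. Nde1 fell in OVA vs. Saline by 0.95 ± 0.23 on the log2 scale (adjusted p = 0.00608, limma), to 43.8% of the Saline mean. It rose in Herb vs. OVA by 0.69 ± 0.22 (adjusted p = 0.03, limma), and this call was lost without OVA 2, OVA 3, Herb 1 or Herb 2, with adjusted p-values up to 0.0953, and with no filter on low values (adjusted p = 0.055, limma). After the rescaling neither difference passed the test, at -0.14 ± 0.26 (adjusted p = 0.687, limma) and 0.20 ± 0.24 (adjusted p = 0.634, limma). Its rows also changed places within the gene. NM_023317 carried the value in 9 libraries, but in OVA 2 it was listed at 0 and NM_001114085 stood at 1.80 FPKM, a row listed at 0 in the other 9. The summed markers of proliferating cells were between 4.54 and 6.81 FPKM in Saline, between 6.59 and 12.2 in OVA and between 11.3 and 20.7 in Herb, and none of the 6 was listed at 0 throughout a group. Their part in the values of Nde1 was not tested.

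Pafah1b1, the gene of Lis1, fell furthest among the partners. It lies at chr11:74673949-74724384. Its RefSeq sum was at 35.0, 35.7 and 35.1 FPKM in Saline, at 6.46, 11.8 and 7.18 in OVA and at 22.5, 25.3, 16.4 and 19.0 in Herb. The Saline libraries were almost level and the groups did not overlap, with every Herb library between OVA and Saline. The OVA mean was 23.99% of the Saline mean. It fell by 1.98 ± 0.23 on the log2 scale (adjusted p = 0.000162, limma), and leaving out 1 library at a time kept the difference between -2.22 and -1.83. Rescaled to the 75th percentile it still fell, by 1.02 ± 0.16 (adjusted p = 0.0018, limma). It also kept its direction with the libraries scaled to a common protein-coding sum, at -0.53 (adjusted p = 0.0229, limma), and after quantile normalization, at -0.49 (adjusted p = 0.043, limma). In Herb vs. OVA it rose by 1.23 ± 0.21 (adjusted p = 0.00716, limma), but after rescaling the difference of 0.64 ± 0.15 did not pass (adjusted p = 0.0708, limma).

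The row that carried Pafah1b1 was NR_037610, at 34.1, 34.7 and 34.3 FPKM in Saline, 5.98, 11.1 and 6.57 in OVA and 21.6, 24.5, 15.8 and 18.2 in Herb. RefSeq gives it a non-coding identifier and GENCODE calls the same transcript protein coding. The mRNA row NM_013625 stayed between 0.474 and 1.02 FPKM. The transcripts have 5789 and 5803 bases and shared 88.3% of the 76-base words of the longer, so the split of reads between them is uncertain and their sum is the safer value. The longest exact run that the 5803-base transcript shared with the pseudogene copy Pafah1b1-ps1 was 75 bases, and with Pafah1b1-ps2 77 bases. These runs are about as long as a read. The 5789-base transcript was not compared with the copies, and matches with mismatches were not examined. Whether reads of the copies entered the values was thus not tested. The assembled models at the locus moved like the RefSeq rows. MSTRG.4672.3 and MSTRG.4672.4 together were between 5.26 and 7.34 FPKM in Saline, between 0.98 and 2.24 in OVA and between 3.43 and 5.66 in Herb. The locus sum therefore gave the same difference, -1.99 ± 0.23 (adjusted p = 0.000132, limma).

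**Figure D2:**
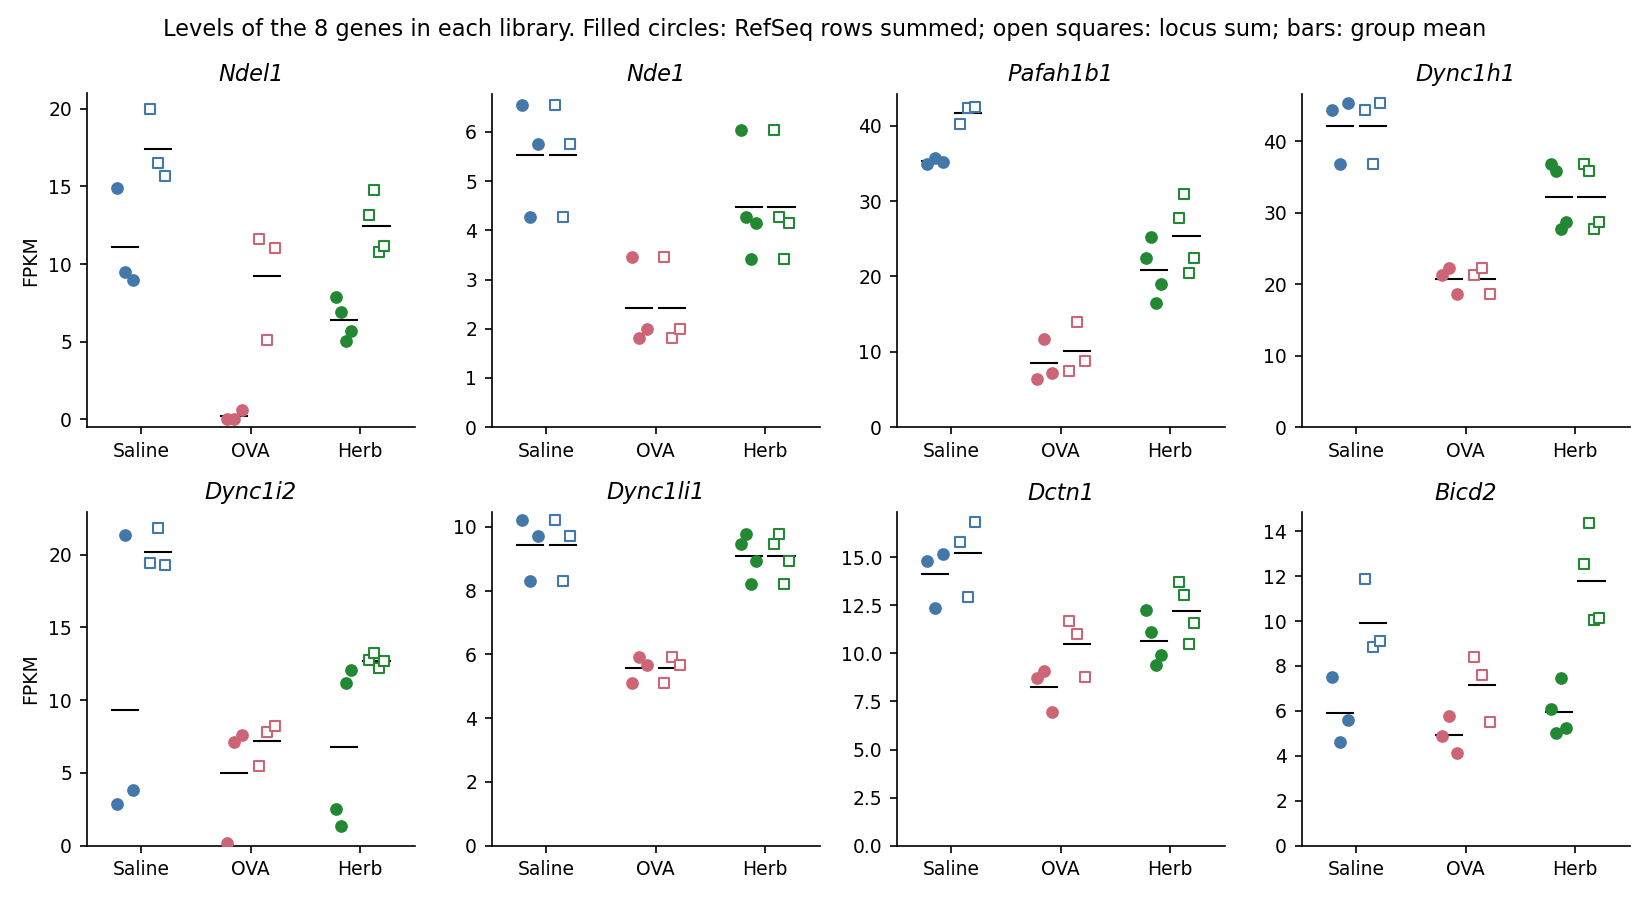
Each panel gives 1 gene's FPKM (y axis, from 0 except for a small margin at Ndel1) in the Saline, OVA and Herb libraries (x axis), with filled circles for RefSeq sums, open squares for locus sums and bars for group means. The circles of Ndel1 reach 0 in OVA while its squares stay at 5.08 FPKM or above, and the scatter of the Dync1i2 circles is absent from its squares.

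Dync1h1, the motor subunit itself, was the most abundant of the 8 genes. It lies at chr12:110601395-110666944 and has a single row of 14342 bases. It was at 44.4, 36.8 and 45.3 FPKM in Saline, at 21.3, 22.2 and 18.6 in OVA and at 36.7, 35.9, 27.7 and 28.7 in Herb. The groups did not overlap, although the gap between Saline 2 and Herb 1 was small. It fell by 0.99 ± 0.17 on the log2 scale in OVA vs. Saline (adjusted p = 0.000851, limma) and rose by 0.61 ± 0.16 in Herb vs. OVA (adjusted p = 0.0148, limma). Relative to the 75th percentile the differences were 0.01 ± 0.14 (adjusted p = 0.968, limma) and -0.02 ± 0.13 (adjusted p = 0.943, limma), and after quantile normalization Dync1h1 was higher in OVA, by 0.80 (adjusted p = 0.00757, limma). With the protein-coding sum it was also higher in OVA, by 0.51 (adjusted p = 0.0414, limma). Its change as deposited was thus close to that of the table as a whole by the 75th percentile scaling, but not by quantile normalization. Among locus sums of its own level its difference in OVA vs. Saline stood at the percentile 83.5.

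Dync1i2, the intermediate chain that Ndel1 and Nde1 bind, repeated the exchange of rows seen at Ndel1, but without regard to group. It lies at chr2:71211676-71263303, with 8 RefSeq rows, of which 4 were listed at 0 in every library. The RefSeq sum was at 2.84, 21.4 and 3.81 FPKM in Saline, at 0.194, 7.16 and 7.59 in OVA and at 2.53, 1.35, 11.2 and 12.0 in Herb. Every group held high and low libraries, and no difference passed the test, with -0.77 ± 1.01 in OVA vs. Saline (adjusted p = 0.533, limma). The assembled model MSTRG.16661.6 was at 16.6, 0.505 and 15.5 FPKM in Saline, at 5.31, 0.643 and 0.616 in OVA and at 10.2, 11.9, 1.01 and 0.676 in Herb. It was high exactly where the RefSeq rows were low.

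Over the locus, Dync1i2 was at 19.4, 21.9 and 19.3 FPKM in Saline, at 5.51, 7.80 and 8.21 in OVA and at 12.8, 13.2, 12.2 and 12.7 in Herb. These 3 groups were tight and did not overlap. The pooled SD within groups was 1.41 on the log2 scale for the RefSeq sum and 0.157 for the locus sum. By the locus sum Dync1i2 fell by 1.39 ± 0.15 in OVA vs. Saline (adjusted p = 0.000116, limma) and rose by 0.76 ± 0.14 in Herb vs. OVA (adjusted p = 0.00562, limma). With rescaling it fell by 0.48 ± 0.12 (adjusted p = 0.0123, limma) and the Herb difference, at 0.20 ± 0.11, did not pass (adjusted p = 0.284, limma). Over all 1112 tested genes with placed models, the median SD within groups was 0.414 for the RefSeq sum and 0.222 for the locus sum. It was lower by the locus sum in 78.3% of them. Models placed at other genes were not compared, and added values can lower an SD on this scale. These SDs therefore do not test the placement.

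Dync1li1, which links the motor to its adaptors, lies at chr9:114688831-114723788. It was at 10.2, 8.31 and 9.72 FPKM in Saline, at 5.10, 5.91 and 5.66 in OVA and at 9.44, 9.76, 8.21 and 8.92 in Herb. Saline and Herb covered the same range and OVA lay below both. It fell by 0.67 ± 0.12 in OVA vs. Saline (adjusted p = 0.00131, limma) and rose by 0.62 ± 0.11 in Herb vs. OVA (adjusted p = 0.00716, limma). Rescaled, the OVA difference turned to 0.24 ± 0.09 (adjusted p = 0.0583, limma) and the Herb difference to 0.05 ± 0.08 (adjusted p = 0.72, limma). Scaled to the protein-coding sum, Dync1li1 was higher in OVA by 0.70 (adjusted p = 0.00224, limma).

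Dctn1, the p150 subunit of dynactin, lies at chr6:83165909-83200118, and NM_001198867 carried nearly its whole value. Its RefSeq sum was at 14.8, 12.4 and 15.2 FPKM in Saline, at 8.72, 9.10 and 6.95 in OVA and at 12.2, 11.1, 9.40 and 9.91 in Herb. OVA lay lowest and Herb 3 came close to OVA 2. It fell by 0.71 ± 0.15 in OVA vs. Saline (adjusted p = 0.00299, limma), and the Herb vs. OVA difference of 0.33 ± 0.14 did not pass (adjusted p = 0.0825, limma). The model MSTRG.24839.3 held more of the locus in OVA, where the RefSeq share was between 74.7% and 82.6%, against 90.1% to 95.6% in Saline. With it, Dctn1 fell by 0.50 ± 0.16 (adjusted p = 0.0206, limma), and this call was lost without Saline 1, Saline 3 or OVA 3, with adjusted p-values up to 0.077. After rescaling, the locus sum was higher in OVA, by 0.43 ± 0.15 (adjusted p = 0.045, limma).

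Bicd2, an adaptor for vesicles and for the nuclear envelope, had the smallest difference of the 7 partners in OVA vs. Saline as deposited, but not after rescaling. It lies at chr13:49341549-49387026. Its RefSeq sum was at 7.50, 4.62 and 5.59 FPKM in Saline, at 4.86, 5.75 and 4.15 in OVA and at 6.09, 5.02, 7.47 and 5.23 in Herb, and all groups overlapped. The difference in OVA vs. Saline was -0.21 ± 0.19 (adjusted p = 0.373, limma), and after rescaling Bicd2 was higher in OVA, by 0.66 ± 0.22 (adjusted p = 0.0355, limma). The model MSTRG.7749.4 at its locus was between 3.503 and 4.38 FPKM in Saline, between 1.36 and 3.54 in OVA and between 2.59 and 9.33 in Herb. By the locus sum the OVA difference was -0.43 ± 0.19 (adjusted p = 0.0801, limma), and Herb was higher than OVA by 0.65 ± 0.18 (adjusted p = 0.0176, limma), a call that was lost without OVA 3 (adjusted p = 0.06, limma).

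In OVA vs. Saline, 5 of the 7 partners fell by their RefSeq sums and none rose, where 57.9% of all genes tested fell. The groups did not overlap for these 5, as for 63% of all genes. The partners' median difference was -0.77, against -0.75 for all genes. A share so close to the background is not a result about these genes. After rescaling, 1 partner fell (Pafah1b1) and 1 rose (Bicd2), where 20.7% and 20.9% of all genes did. By locus sums 6 of 7 fell, where 59.9% of all genes did, and after rescaling of the locus sums Pafah1b1 and Dync1i2 fell and Dctn1 rose, where 22.3% and 22.7% did. Of the 8 partner rows tested as single transcripts, 4 fell, where 41.1% of all transcript rows did.

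In Herb vs. OVA, 4 of 7 partners rose, where 44% of all genes did, and none fell. By locus sums 6 rose, where 48.1% did. With either sum none passed after rescaling, where 0.707% of RefSeq sums and 0.704% of locus sums did in either direction. Unadjusted p-values under 0.05 were found for 3052 of 11309 genes there. Of the 8 transcript rows 3 rose, where 31.7% of all rows did. In Herb vs. Saline the RefSeq sum of Pafah1b1 alone fell, by 0.75 ± 0.21 (adjusted p = 0.0316, limma), where 22.7% of all genes did. This call was lost without Saline 1, Saline 2, Saline 3, Herb 1, Herb 3 or Herb 4 (adjusted p up to 0.0906, limma), with the replicate block (adjusted p = 0.0691, limma) and after each rescaling, at -0.38 with the 75th percentile (adjusted p = 0.106, limma), at -0.10 with the protein-coding sum and at 0.04 with quantile normalization. By locus sums Pafah1b1 and Dync1i2 fell, where 23.6% did. With limma none of the 8 transcript rows passed, where 8.09% of all rows did, and 7885 of 30194 rows had an unadjusted p under 0.05. The OVA and Herb comparisons share libraries, so a fall in the former and a rise in the latter are not independent of each other.

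**Figure D3:**
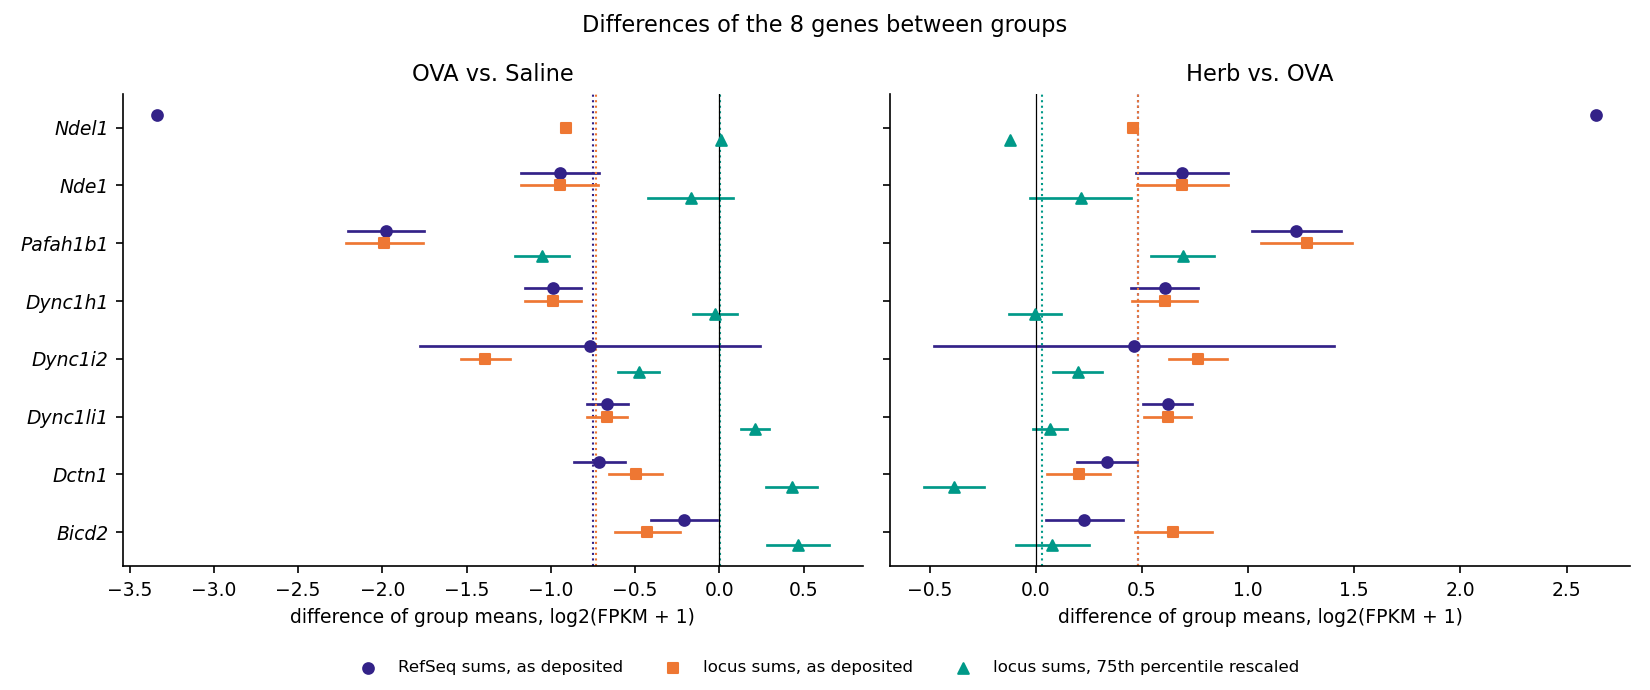
Points give each gene's difference of group means on the log2(FPKM + 1) scale (x axis) for OVA vs. Saline (left) and Herb vs. OVA (right), as RefSeq sums, locus sums and rescaled locus sums, with bars of 1 SE for the 7 partners and none for Ndel1, and dotted lines at the median of all genes. The RefSeq point of Ndel1 stands alone at -3.34 and 2.64, and its locus points lie near the medians.

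The fall of a gene in OVA on the log2(FPKM + 1) scale also went with its level. The added 1 shrinks the differences of genes with low values, and its part in this trend was not tested. Among locus sums with a mean between 5 and 20 FPKM the median difference was -1.08, and between 20 and 100 FPKM it was -1.88. Set against genes of its own level, Pafah1b1 at -1.99 stood at the percentile 45.8 and Ndel1 at 58.6. Nde1 stood lowest of the 8 at 31.9 and Dync1i2 next at 32.3, and Dync1h1 stood highest at 83.5. Bicd2, Dctn1 and Dync1li1 stood at 79.8, 77.2 and 69.6. The fall of Pafah1b1 was therefore not particular among genes as abundant as itself, and whether level or library composition set it was not tested.

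Ranked by their mean locus sums, which are per length, the genes stood in Saline in the order Dync1h1 (42.2 FPKM), Pafah1b1 (41.7), Dync1i2 (20.2), Ndel1 (17.4), Dctn1 (15.2), Bicd2 (9.93), Dync1li1 (9.41) and Nde1 (5.52). The ranges of Dync1h1 and Pafah1b1 overlapped, as did those of Dync1i2 and Ndel1, of Ndel1 and Dctn1 and of Bicd2 and Dync1li1. In OVA the order was Dync1h1 (20.7 FPKM), Dctn1 (10.5), Pafah1b1 (10.1), Ndel1 (9.24), Dync1i2 and Bicd2 (both 7.17), Dync1li1 (5.56) and Nde1 (2.42). There each gene from Dctn1 down to Bicd2 overlapped the next in the order, whereas Dync1h1 lay above all others and Nde1 below them. Lis1 thus went from the level of the motor heavy chain in Saline to less than its level in every OVA library, with 7.44 to 14.0 FPKM against 18.6 to 22.2 for Dync1h1.

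The RefSeq sums whose pattern over the 10 libraries was most like that of Ndel1, by the root mean square difference of centred log2 values, were Gm6644 (0.28), Mrps16 (0.35), Ythdf1 (0.39), Agrn (0.39) and Cnot6 (0.44). Gm6644 and Mrps16 were listed at 0 in all 3 OVA libraries and Ythdf1 in OVA 1 and OVA 2. Models were placed at Cnot6 alone among them, and its locus sum was between 35.9 and 44.4 FPKM in Saline, between 5.43 and 10.3 in OVA and between 17.5 and 25.0 in Herb. Of the partners Pafah1b1 came nearest, at rank 295 of 11204, and Dync1i2 was last at 10585. By locus sums the order changed: Nde1 came nearest at rank 83 of 11559, and Pafah1b1 fell to 8755. The 5 nearest locus sums were those of Atp10d (0.14), 2610008E11Rik (0.18), Fig4 (0.18), Zfp326 (0.19) and Ipo13 (0.20).

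The wider pathway was read from 7 lists of 74 genes beside Ndel1, of which 57 passed the filter. In OVA vs. Saline 38 fell and 5 rose, which is 66.7% and 8.77%, where 57.9% and 3.28% of all genes did. Their median difference was -0.99. After rescaling, 13 fell and 12 rose among the 59 then tested, which is 22% and 20.3%, where 20.7% and 20.9% of all genes did, with a median of -0.14.

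Nearly all tested subunits of the motor and of dynactin fell. Of 13 tested subunits of dynein 1, 11 fell and none rose, with a median of -1.31, and of 11 dynactin subunits 10 fell and none rose, with a median of -1.32. These are 84.6% and 90.9%, beside 57.9% of all genes, and the lists themselves were not tested against other genes. They were also not set against genes of their own level. The median locus sum differed by -1.08 between 5 and 20 FPKM and by -1.88 between 20 and 100 FPKM. Dynlt3, a light chain, was at 29.2, 36.1 and 28.7 FPKM in Saline, at 2.45, 6.46 and 5.54 in OVA and between 10.5 and 16.6 in Herb. It fell by 2.54 ± 0.28 (adjusted p = 0.000158, limma) and passed after rescaling too, at -1.63 ± 0.23 (adjusted p = 0.00146, limma). Dync1li2, the paralog of Dync1li1, fell by 2.30 ± 0.36 (adjusted p = 0.000582, limma) and after rescaling by 1.49 ± 0.35 (adjusted p = 0.00956, limma). Capza2, which caps the short actin-like filament of dynactin, fell by 2.28 ± 0.22 (adjusted p = 0.000149, limma) and after rescaling by 1.32 ± 0.16 (adjusted p = 0.00102, limma). After rescaling of the RefSeq sums, 3 of the 13 dynein 1 subunits and 4 of the 11 dynactin subunits fell. These are 23.1% and 36.4%, beside 20.7% of all genes, and none of either list rose, beside 20.9%. By rescaled locus sums 5 of 13 and 5 of 12 fell, which is 38.5% and 41.7% beside 22.3% of all genes. None of the dynein 1 list then rose and of the dynactin list Dctn1 alone did, which is 8.33%, beside 22.7%. Dctn4 fell by 1.88 ± 0.73 (adjusted p = 0.0483, limma) on the deposited scale, and after rescaling the difference was -1.02 ± 0.72 (adjusted p = 0.282, limma).

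Of the 9 tested genes of the Lis1 and Nde list without Ndel1, 5 fell and 2 rose, which is 55.6% and 22.2% beside 57.9% and 3.28% of all genes. After rescaling 2 of the 9 fell and 2 rose, which is 22.2% each, beside 20.7% and 20.9% of all genes. Ywhae, the 14-3-3 protein that guards phosphorylated Ndel1, was at 13.9, 43.7 and 17.0 FPKM in Saline against 1.81, 3.67 and 4.97 in OVA. It fell by 2.42 ± 0.53 (adjusted p = 0.00346, limma), and after rescaling the difference of -1.55 ± 0.57 did not pass (adjusted p = 0.0559, limma). By the rescaled locus sum Ywhae fell by 0.71 ± 0.18 (adjusted p = 0.0124, limma). Pafah1b2, a catalytic subunit of the enzyme in which Lis1 is the regulatory subunit, was at 14.1, 14.2 and 13.8 FPKM in Saline against 1.91, 4.51 and 3.84 in OVA. It fell by 1.82 ± 0.23 (adjusted p = 0.000217, limma) and after rescaling by 0.95 ± 0.18 (adjusted p = 0.00387, limma). Disc1 and Cenpf, which bind Nde1 or Ndel1, rose in OVA, Disc1 by 0.74 ± 0.14 (adjusted p = 0.00173, limma) and Cenpf by 0.42 ± 0.15 (adjusted p = 0.0331, limma), and were named after their values were seen. This list of the Lis1 and Nde genes and their partners was thus not uniform: Pafah1b1 and Pafah1b2 fell on both scales and Disc1 and Cenpf rose on both.

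**Figure D4:**
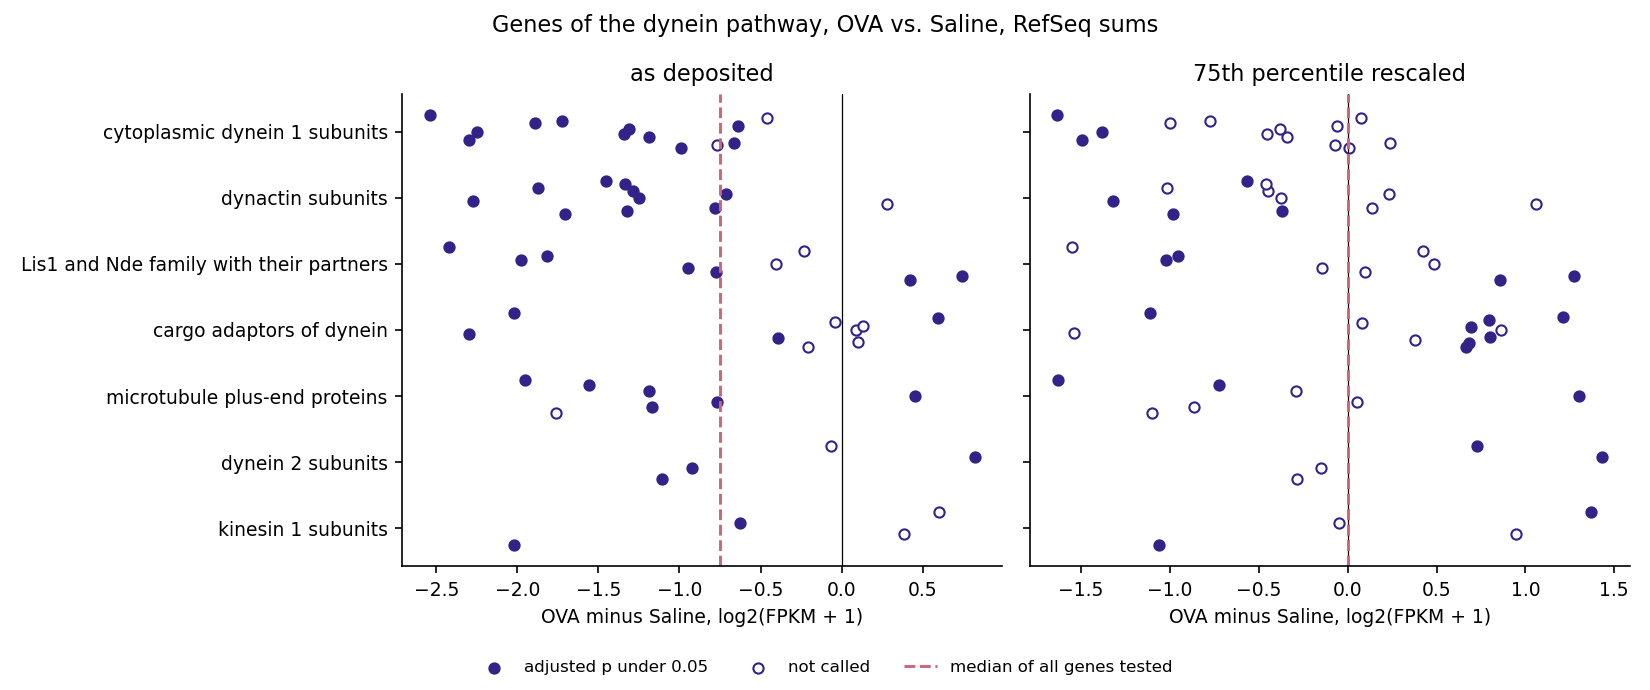
Points give the OVA minus Saline difference of log2(FPKM + 1) (x axis) for each tested gene of the 7 pathway lists (y axis) as deposited (left) and after the 75th percentile rescaling (right), filled where the limma adjusted p was under 0.05, with a dashed line at the median of all genes. The dynein 1 and dynactin lists lie mostly left of 0 as deposited, and the rescaled adaptors lie mostly to its right.

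Adaptors were mixed. Of 9 tested, 3 fell and 1 rose, with a median of -0.04, and after rescaling 1 fell and 6 rose among 11. The shares are 33.3% and 11.1% beside 57.9% and 3.28% of all genes, and after rescaling 9.09% and 54.5% beside 20.7% and 20.9%. Hook3, an adaptor for endosomes, was at 14.3, 13.9 and 14.0 FPKM in Saline against 3.46, 4.57 and 0.153 in OVA. It fell by 2.30 ± 0.50 (adjusted p = 0.00335, limma), and after rescaling the difference of -1.54 ± 0.59 did not pass (adjusted p = 0.063, limma). Trak2, which links motors to mitochondria, fell by 2.02 ± 0.22 (adjusted p = 0.000155, limma) and after rescaling by 1.11 ± 0.21 (adjusted p = 0.00387, limma). Among plus-end proteins 5 of 7 fell and 1 rose, which is 71.4% and 14.3% beside the same 57.9% and 3.28%. After rescaling 2 of the 7 fell and 1 rose, which is 28.6% and 14.3% beside 20.7% and 20.9%. Mapre3 was between 2.72 and 3.70 FPKM in Saline, was listed at 0 in OVA 1 and OVA 2 and was at 0.15 FPKM in OVA 3. Its difference was -1.95 ± 0.43 (adjusted p = 0.00333, limma). Mapre2 fell by 1.56 ± 0.19 (adjusted p = 0.000197, limma) and after rescaling by 0.73 ± 0.13 (adjusted p = 0.00299, limma).

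The motors outside dynein 1 were compared as a background. Of 4 tested dynein 2 genes, the motor of cilia, 2 fell and 1 rose, with Dync2li1 at -1.11 ± 0.19 (adjusted p = 0.000974, limma). Of 4 tested kinesin 1 genes, the motor that walks the other way, 2 fell and none rose. In each of these lists 50% fell, beside 57.9% of all genes, and 25% and 0% rose, beside 3.28%. After rescaling none of the 4 dynein 2 genes fell and 2 rose, which is 0% and 50%, beside 20.7% and 20.9% of all genes. Of the 4 kinesin 1 genes 1 then fell and 1 rose, which is 25% each. Kif5b, its main heavy chain, went from 35.2, 35.4 and 34.7 FPKM in Saline to 7.71, 9.51 and 6.69 in OVA. It fell by 2.02 ± 0.18 (adjusted p = 0.000136, limma) and after rescaling by 1.06 ± 0.13 (adjusted p = 0.00103, limma). By RefSeq sums Kif5b thus had the level and the fall of Pafah1b1. By locus sums the lowest difference in the kinesin 1 list was -1.75, against -1.99 for Pafah1b1. Klc3, a kinesin light chain, fell by 0.63 ± 0.15 on the deposited scale (adjusted p = 0.00625, limma) but not after rescaling. The summed markers of ciliated cells were between 10.8 and 26.3 FPKM in Saline, between 15.4 and 47.7 in OVA and between 21.1 and 31.5 in Herb.

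In Herb vs. OVA, 29 of the 57 pathway genes rose and 2 fell, where 44% and 0.446% of all genes did. After rescaling none of 59 rose and 1 fell, where 0.363% and 0.345% did. Dynlt3 rose by 1.42 ± 0.27 (adjusted p = 0.00716, limma), Capza2 by 1.20 ± 0.21 (adjusted p = 0.00716, limma) and Trak2 by 1.14 ± 0.21 (adjusted p = 0.00716, limma). Hook3 rose by 1.58 ± 0.47 (adjusted p = 0.0247, limma), Pafah1b2 by 1.09 ± 0.22 (adjusted p = 0.00741, limma) and Kif5b by 1.08 ± 0.16 (adjusted p = 0.00716, limma). Dync1li2, Capzb, Ywhae, Clasp2, Mapre2 and Dync2li1 rose by between 0.73 and 1.39. The gene that fell after rescaling was Rilp, an adaptor for lysosomes named after its value was seen, at -0.87 ± 0.13 (adjusted p = 0.0287, limma). In Herb vs. Saline 15 pathway genes fell and 2 rose, where 22.7% and 3.32% of all genes did.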

How the data were processed

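Lung RNA of 10 mice was sequenced by the authors as 76-base pairs. Per the submitters' processing notes the reads were trimmed with cutadapt 1.10, aligned to mm10 with HISAT2 and assembled with StringTie 1.3.3b, and edgeR 3.16.5 was listed. The deposited FPKM values, 1 column per library in 66548 transcript rows, were made by the authors and are not counts. Library totals are not given. The smallest step of the low FPKM values corresponded to between 29.4 and 58.7 M counted units per library, but whether a unit is a read or a pair is unknown, and only between 43.3% and 51.7% of low values were within 0.1 of a whole multiple, so no count test was run. A value of exactly 0 can be a failed estimate: Gapdh was listed at 0 in 9 of 10 libraries.

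Groups came from the sample titles. RefSeq rows were summed per symbol, and limma 3.58.1 (R 4.3.3) was fitted with a mean-variance trend to log2(FPKM + 1) of all genes with a mean of at least 1 FPKM, with 3 group means, and p-values were adjusted by Benjamini-Hochberg over all genes tested. The script was tested on simulated data. An assembled model was placed at a gene where its number matched its order among that gene's rows within 10 rows, which placed 1478 of 3736 loci (39.6%) with a number free for a RefSeq row. The replicate number in the titles was not used to pair the samples in the main fit. Sequences were read from RefSeq and GENCODE vM21 tables. Python 3.11.15 was used for the sums and plots.

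The 8 genes and the pathway lists were chosen with earlier results of these data known. Non-members were named by size: per list, up to 2 called genes with the largest difference whose groups did not overlap. Alternatives were the 75th percentile, protein-coding sum and quantile scalings, a pseudocount of 0.1, no filter, fits of 2 groups, a replicate block and leaving out each library. The labels and the methods name different RNA kits, so strandedness is uncertain. The study describes its samples as taken from mice and no label ties a library to an animal, so each library was taken as 1 sample and the p-values measure the spread between these samples.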

Additional observations from a re-analysis of the deposited data

How the results depend on the processing

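The direction of most partners depended on how the libraries were scaled, and the cause was not tested. Counts are of genes past a limma adjusted p of 0.05. With the 75th percentile, protein-coding sum and quantile scalings, 1, 1 and 1 partner fell in OVA vs. Saline in place of 5 and 1, 4 and 4 rose in place of 0. In Herb vs. OVA 0, 0 and 0 rose in place of 4, and in Herb vs. Saline 0, 0 and 0 fell in place of 1 and 1, 1 and 1 rose in place of 0. Of the pathway genes 13, 10 and 11 fell in OVA vs. Saline in place of 38 and 12, 20 and 14 rose in place of 5. In Herb vs. OVA 0, 0 and 0 rose in place of 29 and 1, 3 and 1 fell in place of 2, and in Herb vs. Saline 6, 2 and 1 fell in place of 15 and 5, 10 and 4 rose in place of 2. Of the 8 partner transcript rows 1, 1 and 1 fell in OVA vs. Saline in place of 4 and 0, 3 and 1 rose in place of 0, and 0, 0 and 0 rose in Herb vs. OVA in place of 3. In Herb vs. Saline 0, 1 and 0 of these rose in place of 0. Locus sums, chosen after seeing the data, gave 2 partners lower in Herb vs. Saline. After 75th percentile rescaling the locus sums gave 2 partners lower and 1 higher in OVA vs. Saline, 0 in either direction in Herb vs. OVA, and 0 lower and 1 higher in Herb vs. Saline. Of the pathway genes 17 were lower and 16 higher, 0 higher and 1 lower, and 6 lower and 7 higher, in the same order. With only the 2 groups compared, 1 transcript row fell in Herb vs. Saline in place of 0. A pseudocount of 0.1 and the lack of a filter moved no count by over 1.5 times, although without the filter the rise of Nde1 in Herb vs. OVA was lost (adjusted p = 0.055, limma).

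With the replicate number as a replicate block, 0 partners and 9 pathway genes fell in Herb vs. Saline and 1 transcript row rose in Herb vs. OVA, and no other count moved by over 1.5 times. Deviations of libraries with the same number correlated between -0.01 and 0.10, and not every library correlated best with its own number. With so few libraries these correlations cannot decide whether the numbers pair the samples.

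With each library left out in turn, the partners called numbered 5 throughout in OVA vs. Saline, 3 to 4 in Herb vs. OVA and 0 to 1 in Herb vs. Saline, with 0 without Saline 1, Saline 2, Saline 3, Herb 1, Herb 3 or Herb 4. The pathway genes numbered 33 to 38, 19 to 29 (19 without Herb 2) and 6 to 16 (6 without Saline 2, 7 without Saline 1 or Saline 3, 9 without Herb 3 or Herb 4, 10 without Herb 1). The transcript rows numbered 4 to 5, 0 to 3 (0 without OVA 1) and 0 to 1 (1 without OVA 2).

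Single log2 differences turned in sign as follows. With the protein-coding sum, OVA vs. Saline gave 0.26 for Nde1, 0.51 for Dync1h1, 0.30 for Dync1i2, 0.70 for Dync1li1, 0.71 for Dctn1 and 1.104 for Bicd2, Herb vs. OVA -0.23 for Dync1h1, -0.039 for Dync1i2, -0.15 for Dync1li1, -0.46 for Dctn1 and -0.53 for Bicd2, and Herb vs. Saline 0.29 for Nde1, 0.28 for Dync1h1, 0.26 for Dync1i2, 0.55 for Dync1li1 and 0.25 for Dctn1. With the 75th percentile, OVA vs. Saline gave 0.0081 for Dync1h1, 0.24 for Dync1li1, 0.23 for Dctn1 and 0.66 for Bicd2, Herb vs. OVA -0.019 for Dync1h1, -0.26 for Dctn1 and -0.33 for Bicd2, and Herb vs. Saline 0.055 for Nde1, 0.018 for Dync1i2 and 0.29 for Dync1li1. With quantile normalization, OVA vs. Saline gave 0.80 for Dync1h1, 0.15 for Dync1i2, 0.40 for Dync1li1, 0.55 for Dctn1 and 0.73 for Bicd2, Herb vs. OVA -0.35 for Dync1h1, -0.050 for Dync1i2, -0.015 for Dync1li1, -0.42 for Dctn1 and -0.37 for Bicd2, and Herb vs. Saline 0.035 for Nde1, 0.038 for Pafah1b1, 0.45 for Dync1h1, 0.099 for Dync1i2, 0.39 for Dync1li1 and 0.14 for Dctn1. With rescaled locus sums, OVA vs. Saline gave 0.21 for Dync1li1, 0.43 for Dctn1, 0.47 for Bicd2 and 0.0094 for Ndel1, Herb vs. OVA -0.0047 for Dync1h1, -0.39 for Dctn1 and -0.12 for Ndel1, and Herb vs. Saline 0.040 for Nde1, 0.28 for Dync1li1 and 0.042 for Dctn1. With 1 library left out, the RefSeq sum of Dync1i2 ranged from -1.25 to 0.17, from -0.47 to 0.95 and from -0.78 to 0.49 in the 3 comparisons, and in Herb vs. Saline Dync1li1 ranged from -0.12 to 0.0103 and Bicd2 from -0.12 to 0.18. Read totals are unknown, so no lower limit was set for values listed at 0.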
